A study of Mus musculus with 4 samples.

Results

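Blood vessel genes were followed in spatial transcriptomes of MC38 tumors. The members were 8 endothelial genes (Pecam1, Cdh5, Kdr, Emcn, Flt1, Tek, Tie1 and Esam) and 2 pericyte genes (Rgs5 and Pdgfrb), a set named with earlier results of these data known and matched by symbol among the 32285 genes of the tables, where each had 1 row. Visium captures the RNA of a tissue section on barcoded spots, and a unique molecular identifier (UMI) marks each captured molecule. In all, 4 sections were available, each from a different tumor. MC38, a colon carcinoma line of C57BL/6 origin, was grown under the skin of female F1 hosts aged 8 to 12 weeks. The 2 CC075F1 hosts were C57BL/6J x CC075/UncJ and the 2 CC080F1 hosts were C57BL/6J x CC080/TauUncJ, so both groups carried one C57BL/6J genome and one from a Collaborative Cross strain. The study treats CC075F1 as a strain whose tumors respond to anti-PD-1 and CC080F1 as one whose tumors do not. All 4 hosts had 200 µg of an isotype antibody (2A3) once their tumors measured 75 to 110 mm3 and were sampled 48 h after it, so no anti-PD-1 treated tumor entered these comparisons.

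Endothelial cells line vessels, and pericytes wrap the capillary wall from outside. Endothelial cells grow toward VEGF through the receptor KDR, while FLT1 also binds VEGF and limits what reaches KDR. TEK (TIE2) and TIE1 form the angiopoietin receptor pair that steadies vessels. PECAM1, CDH5 (VE-cadherin) and ESAM join neighboring endothelial cells, and EMCN is a sialoglycoprotein of their surface. Endothelial PDGF-B draws pericytes through PDGFRB, which fibroblasts also carry, and RGS5 is a regulator of G protein signaling found in pericytes. Tumor vessels are often poorly covered by pericytes and unevenly spread between the rim and the core of a tumor.

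Many endothelial promoters are read by ETS factors, whose core motif is GGAA. Promoter sequence of RefSeq on GRCm38.p6 was at hand for 6 of the 10 members (Kdr, Emcn, Flt1, Tek, Tie1 and Rgs5). The 250 bases before the start are shown for a VEGF receptor of either kind and for the pericyte gene Rgs5, since these are the genes whose levels are followed below. Each runs 5′ to 3′ on the strand of its gene, and capitals mark GGAA or its reverse complement. They lie at chr5:75978456-75978705 (Kdr, minus strand), chr5:147726012-147726261 (Flt1, minus strand) and chr1:169655251-169655500 (Rgs5, plus strand).
Kdr: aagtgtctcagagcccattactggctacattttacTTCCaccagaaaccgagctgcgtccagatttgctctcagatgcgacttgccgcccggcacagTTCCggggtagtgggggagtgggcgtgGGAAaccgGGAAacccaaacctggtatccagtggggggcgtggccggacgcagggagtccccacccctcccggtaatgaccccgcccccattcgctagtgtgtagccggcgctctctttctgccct
Flt1: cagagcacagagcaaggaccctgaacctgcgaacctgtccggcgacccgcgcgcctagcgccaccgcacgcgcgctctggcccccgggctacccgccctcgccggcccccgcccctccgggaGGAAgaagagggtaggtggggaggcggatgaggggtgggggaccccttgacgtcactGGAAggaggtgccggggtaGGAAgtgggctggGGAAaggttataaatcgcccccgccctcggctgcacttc
Rgs5: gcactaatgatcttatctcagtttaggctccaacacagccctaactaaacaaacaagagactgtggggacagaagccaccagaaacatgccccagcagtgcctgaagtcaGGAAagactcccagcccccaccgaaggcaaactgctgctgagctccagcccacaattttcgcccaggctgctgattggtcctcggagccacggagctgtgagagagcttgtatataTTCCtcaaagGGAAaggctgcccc

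The core occurred 4 times before Kdr, 4 times before Flt1 and 3 times before Rgs5, with both strands counted. Among 27025 promoters of the same length, 93.4% held at least 1 such match and the median was 3, so such matches are common in promoters. The longer form CAGGAAG, which contains the core, was found in 10.5% of all promoters, and of the 6 members only Emcn held it.

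The sections held 2710 and 3276 spots (CC075F1) and 2787 and 3174 spots (CC080F1), with totals from 82594649 to 146460975 UMIs. A spot covers several cells, and fewer cells of a type cannot be told apart from less RNA per cell. Of the 4992 barcoded positions that every capture area shares, 1666 lay under tissue in all 4 sections. CC075F1 section 2 stood apart. Its scaling factor (TMM, which corrects for a few genes taking a large share of UMIs) was 0.745 against 1.07 to 1.17 in the others, it held 59 spots with over 0.5% skin, muscle or fat UMIs, all at the edge, and its 4 erythrocyte genes summed to 518 TMM-scaled CPM (UMIs scaled to a total of 1000000) against 22.0 to 147. CC080F1 section 1 held 29 off-tissue positions enclosed by tissue, against 2 to 8 in the other sections, and had 75 spots on the rim of the capture grid. Its edge thus included spots around the enclosed positions. Other endothelial markers were present at 324 to 470 TMM-scaled CPM in sum over 22 genes, and other mural cell markers at 103 to 167 over 12 genes. The lymphatic factor Prox1 reached at most 0.0367 TMM-scaled CPM. Reads had been aligned to the C57BL/6J reference in both strains, and the part of strain variants in the counts was not tested.

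**Figure D1:**
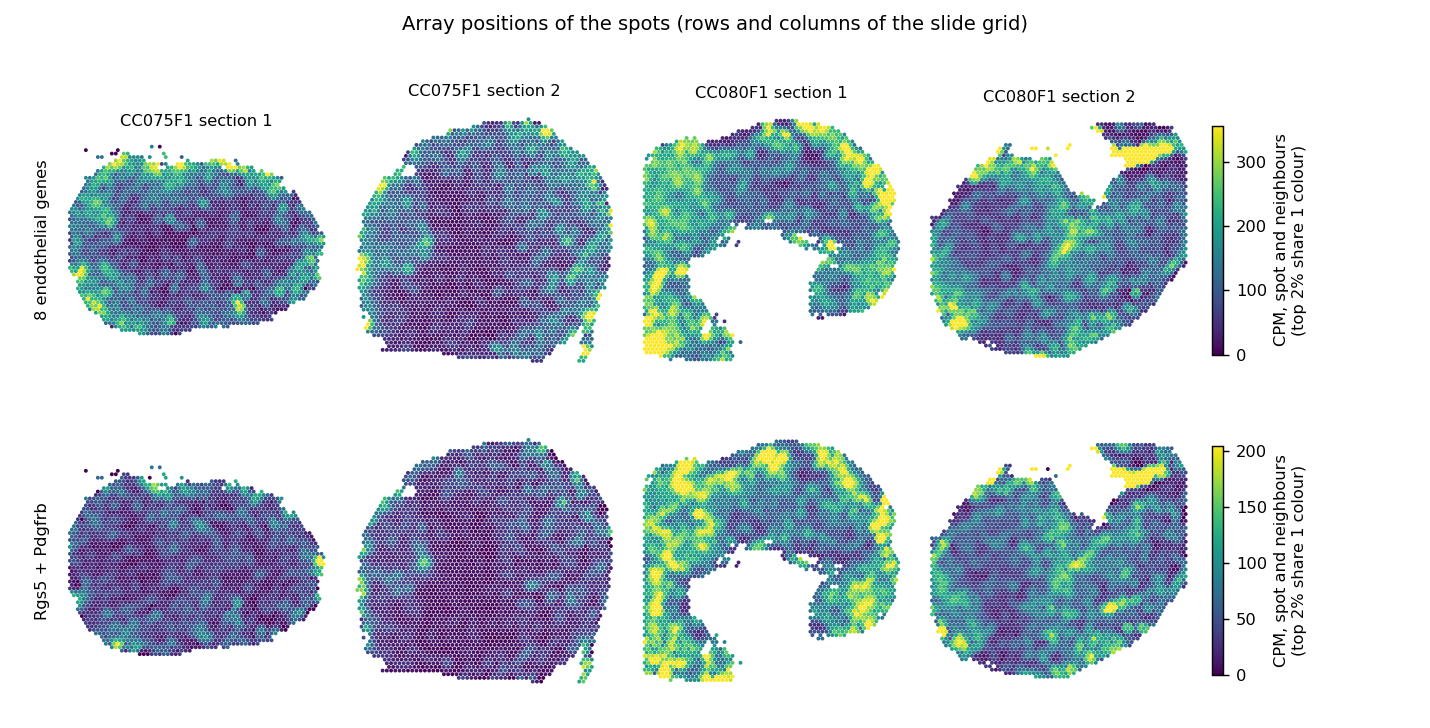
Each dot is a spot at its place on the slide grid, colored by CPM summed over the spot and its neighbors for the 8 endothelial genes (upper row) and for Rgs5 and Pdgfrb (lower row), with 1 scale per row and the top 2% of spots in 1 color. The centers of both CC075F1 sections are dark, and bright patches run through both CC080F1 sections and along parts of every edge.

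The first comparison asked whether vessel genes differed between the host strains. All 10 members had a lower fitted level in CC075F1 than in CC080F1, with the largest differences for the pericyte genes, but none passed the adjusted threshold in edgeR's quasi-likelihood fit over 15572 genes. At an adjusted p under 0.05, 0.0899% of genes were called (14, of which 9 were higher in CC075F1). DESeq2 called 2 members, Rgs5 and Pdgfrb, against 1.27% of all genes (194). At an unadjusted p under 0.05, 6 of the 10 members were lower in CC075F1, against 2.25% of all genes. In 8 of 10 members both CC075F1 sections lay below both CC080F1 sections, which held for 18.3% of all genes. The median log2 difference of the members was −0.71, against −0.02 for all genes tested. With 2 sections per strain, an exact permutation test of a single value cannot go below p = 0.333.

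Rgs5 (ENSMUSG00000026678, chromosome 1, 169655501 to 169695813) stood at 13.04 and 19.2 TMM-scaled CPM in CC075F1, and the CC080F1 sections held 48.9 and 31.0. Both CC075F1 sections were lower than either CC080F1 section, with strain means of 16.1 ± 4.36 and 39.9 ± 12.7 (SD, n = 2 each). The fitted log2 difference was −1.31 ± 0.29 (SE), at an edgeR adjusted p of 0.347. Pdgfrb (ENSMUSG00000024620, chromosome 18, 61045150 to 61085061) measured 22.0 and 15.7 TMM-scaled CPM in CC075F1 and 46.0 and 38.5 in CC080F1. The strains did not overlap here either, and the log2 difference was −1.16 ± 0.23 at an edgeR adjusted p of 0.245. Without CC080F1 section 2 both passed, with edgeR adjusted p of 0.000641 for Rgs5 and 0.0189 for Pdgfrb, in a fit that called 1.3% of all genes. Leaving out any other section left them at adjusted p of 0.0851 or higher.

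**Figure D2:**
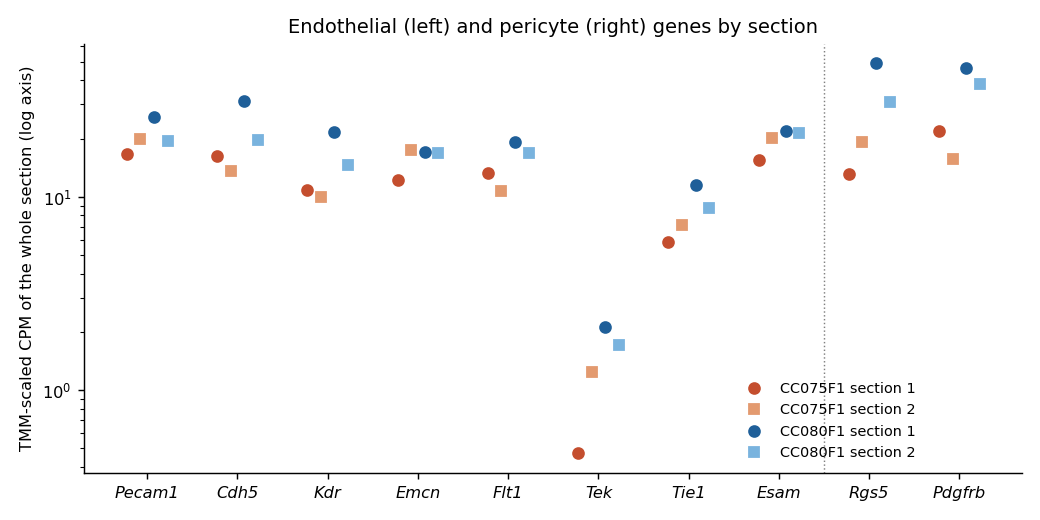
TMM-scaled CPM of each gene over the whole section (log axis), 1 point per section, endothelial genes left and pericyte genes right of the dotted line. Rgs5 and Pdgfrb lie at 13.04 to 22.0 in CC075F1 and 31.0 to 48.9 in CC080F1, while Pecam1 and Emcn overlap between strains.

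Among the VEGF receptors, Kdr (chromosome 5, 75932827 to 75978458) measured 10.8 and 9.95 TMM-scaled CPM in CC075F1 and 21.6 and 14.5 in CC080F1. Flt1 (chromosome 5, 147561604 to 147726011) measured 13.2 and 10.7 against 19.1 and 16.9. Neither gene overlapped between strains, with log2 differences of −0.80 ± 0.24 for Kdr and −0.59 ± 0.20 for Flt1 and edgeR adjusted p of 0.604 and 0.730. For the angiopoietin receptors, Tie1 (chromosome 4, 118471191 to 118490061) stood at 5.85 and 7.13 TMM-scaled CPM against 11.5 and 8.75. Tek (chromosome 4, 94739289 to 94874976) rested on 42 and 136 UMIs in CC075F1 and 231 and 205 in CC080F1, the fewest of any member. Its log2 difference of −1.15 ± 0.51 was correspondingly wide, and that of Tie1 was −0.64 ± 0.24.

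Of the junction and surface genes, Cdh5 (chromosome 8, 104101625 to 104144511) measured 16.2 and 13.6 TMM-scaled CPM in CC075F1 and 31.2 and 19.7 in CC080F1, a log2 difference of −0.77 ± 0.26. Pecam1 (chromosome 11, 106654217 to 106750628) measured 16.6 and 19.9 against 25.8 and 19.4, so the strains overlapped. Esam (chromosome 9, 37528078 to 37538319) measured 15.4 and 20.1 against 21.9 and 21.3. Emcn (chromosome 3, 137341067 to 137432185) overlapped as well, at 12.2 and 17.4 against 17.0 and 16.9. The log2 differences of Pecam1, Esam and Emcn, −0.31 ± 0.22, −0.28 ± 0.20 and −0.19 ± 0.22, were near their own errors, and that of Emcn turned to 0.04 without CC075F1 section 1.

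No gene of the other lists passed the adjusted test between strains. In this fit 47.5% of all genes tested were higher in CC075F1, the share to set beside the list counts that follow. Of 22 other endothelial markers, 18 were lower in CC075F1, with a median log2 difference of −0.46. Of these, 5 had an unadjusted p under 0.05, against 2.25% of all genes that were lower in CC075F1 at that level. Plvap, a protein of endothelial fenestrae, measured 26.2 and 28.3 TMM-scaled CPM in CC075F1 and 41.9 and 31.8 in CC080F1, whereas Cd34 overlapped at 122 and 220 against 132 and 172. Of 12 other mural cell markers 8 were lower, with a median of −0.18. Mcam, an adhesion molecule of pericytes and endothelium, measured 21.2 and 24.3 against 49.5 and 35.8 and had a log2 difference of −0.91 ± 0.22 (edgeR adjusted p = 0.403), and Cspg4, the pericyte proteoglycan NG2, measured 47.5 and 33.0 against 57.9 and 38.7. Of 4 angiopoietin genes 3 were lower, with a median of −0.77. Angpt2, the vessel-destabilizing ligand of TEK, measured 6.04 and 6.74 against 9.08 and 9.26, and Ptprb, the phosphatase that acts on TEK, 3.27 and 3.36 against 8.13 and 5.37. Of 7 vascular Notch genes 6 were lower (median −0.49). Notch1 had a log2 difference of −0.28 ± 0.20 and Notch4 one of −0.49 ± 0.22.

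The 8 VEGF ligands and other VEGF receptors had a median log2 difference of −0.07. Vegfa measured 92.3 and 77.4 TMM-scaled CPM in CC075F1 and 97.3 and 86.8 in CC080F1, and Vegfb 108 and 211 against 92.0 and 110. Among 4 PDGF ligands the median was −0.02. Pdgfb, the ligand of PDGFRB made by endothelium, measured 15.6 and 15.7 against 17.99 and 14.8, and Pdgfa had a log2 difference of 0.53 ± 0.19 (edgeR adjusted p = 0.815).

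Markers of other cells were compared as well. The 10 fibroblast markers summed to 1833 and 1613 TMM-scaled CPM in CC075F1 and to 2584 and 2571 in CC080F1. Of these sums Col3a1 alone held 1057 and 448 against 1710 and 1320. In the fit 6 of the 10 were lower and 4 higher in CC075F1, where 47.5% of all genes tested were higher. The 6 macrophage markers summed to 3089 and 3564 against 1723 and 2206, with 5 of 6 higher in CC075F1. Of 9 hypoxia genes 8 were higher in CC075F1 in the fit (median 0.38), none called, with overlapping sums of 2887 and 4140 against 2217 and 3009. Their part in the vessel gene levels was not tested.

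The second measure was the pericyte to endothelial ratio, the summed UMIs of Rgs5 and Pdgfrb over those of the 8 endothelial genes. The CC075F1 sections had 0.386 and 0.349, and the CC080F1 sections 0.632 and 0.583. The strains did not overlap, with means of 0.367 ± 0.026 and 0.608 ± 0.035 (SD, n = 2 each), a ratio of 0.605 between strains (two-sided exact permutation p = 0.333, the smallest possible). Both pericyte genes took part. Rgs5 alone over the endothelial sum gave 0.168 ± 0.034 against 0.293 ± 0.046, and Pdgfrb alone gave 0.200 ± 0.060 against 0.315 ± 0.012. The ratio was set apart in both zones of the tumor, at 0.334 ± 0.001 against 0.544 ± 0.038 within 3 steps of the edge and 0.378 ± 0.035 against 0.636 ± 0.070 further in. The balance between the pericyte genes themselves was not set apart, since Rgs5 over Pdgfrb was 0.592 and 1.22 in CC075F1 and 1.06 and 0.805 in CC080F1. By distance, the CC075F1 sections lay below the CC080F1 sections in each bin up to 12 steps. At 1 step the ratio was 0.369 and 0.347 against 0.485 and 0.574, and at 9 to 12 steps 0.381 and 0.388 against 0.705 and 0.671. At 13 or more steps the strains overlapped, with 0.589 and 0.379 against 0.572 and 0.611. Fibroblasts also express Pdgfrb, and 6 of their 10 markers were lower and 4 higher in CC075F1 in the fit, none called. The share of the ratio due to pericytes was not tested.

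The third comparison asked how the genes were placed between the edge and the interior of a section. Edge spots were those within 3 grid steps of a position off tissue, and levels here are plain CPM of the summed spots. All 10 members had a higher fitted level at the edge, with a median log2 difference of 0.56 against −0.02 for all genes, but none passed the adjusted threshold in edgeR, which called 0.871% of 14345 genes. DESeq2 called 6 members (Pecam1, Cdh5, Kdr, Emcn, Flt1 and Esam), against 4.24% of all genes. At an unadjusted p under 0.05, 9 of 10 members were higher at the edge, against 10.2% of all genes. All 8 endothelial members, and neither pericyte member, were above the interior in each of the 4 sections, which held for 17.5% of all genes. Edge spots were shallower than interior spots, with medians of 18032 to 30120 against 33592 to 46146 UMIs.

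Pecam1 had the lowest p of the members. Its edge and interior CPM were 34.0 and 15.4 in CC075F1 section 1, and 28.4 and 12.8 in section 2. In CC080F1 they were 33.7 and 28.5 in section 1, and 28.1 and 19.3 in section 2. In plain CPM, without TMM scaling, the edge levels of the strains overlapped and the interior levels did not. In TMM-scaled fits of each zone, the log2 difference of Pecam1 (CC075F1 over CC080F1) was 0.22 ± 0.18 in edge spots. It was −0.41 ± 0.23 in interior spots. The log2 difference of edge over interior for Pecam1 across all sections was 0.69 ± 0.13 (edgeR adjusted p = 0.0574). Emcn and Flt1 came next, at 0.61 ± 0.13 and 0.51 ± 0.10, with edgeR adjusted p of 0.0673 and 0.0652. Kdr, Cdh5, Esam and Tie1 ranged from 0.49 to 0.63. For Tie1 the edge and interior CPM were 12.4 and 5.37 in CC075F1 section 1 and 10.1 and 4.59 in section 2, and in CC080F1 they were 13.7 and 13.3, and 9.73 and 9.26. Tie1 was thus nearly level from edge to interior in both CC080F1 sections. For Kdr they were 20.1 and 10.4, and 11.4 and 6.81, in CC075F1 and 27.4 and 24.3, and 19.3 and 14.8, in CC080F1. Tek had the largest log2 value of the members, 1.03 ± 0.29. Without CC080F1 section 1, the section with the most enclosed off-tissue positions, 8 members passed, against 5.95% of all genes in that fit (854, where the fit of all sections called 125). Leaving out any other section left 0.

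For the pericyte genes the sections disagreed in sign. Edge over interior in log2 was 1.35 and 0.92 in CC075F1 and −0.16 and 0.66 in CC080F1 for Rgs5. For Pdgfrb it was 0.42 and 0.92 against −0.30 and 0.08. The fitted differences were 0.59 ± 0.19 for Rgs5 and 0.19 ± 0.14 for Pdgfrb, with edgeR adjusted p of 0.178 and 0.500. Rgs5 exceeded Pdgfrb in 4 of 4 sections, by 0.42 ± 0.43 on the log2 scale (SD over sections), although by under 0.01 in CC075F1 section 2. The exact sign-flip test over sections gave p = 0.125, the smallest that 4 sections allow.

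**Figure D3:**
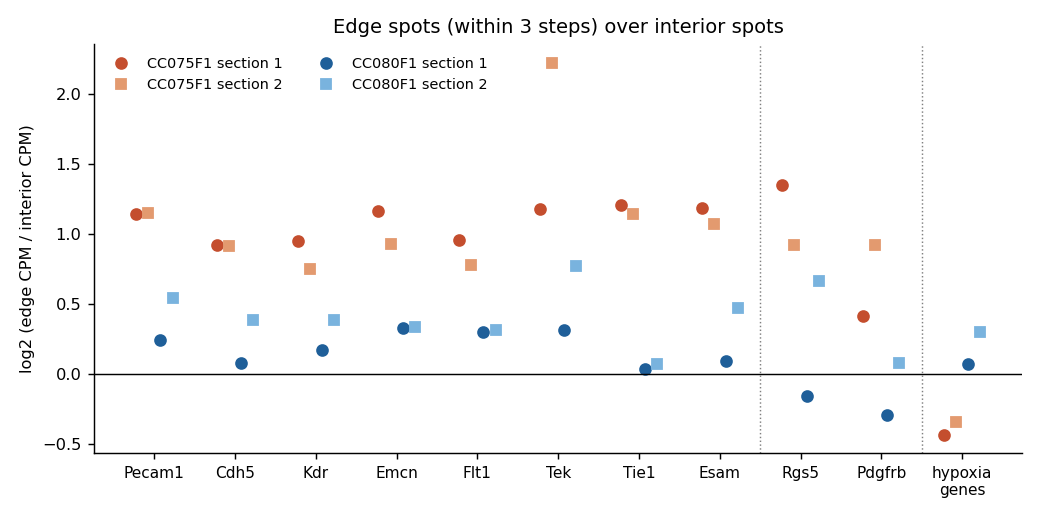
Log2 of edge CPM (spots within 3 steps of the edge) over interior CPM for each member and for the sum of 9 hypoxia genes, 1 point per section, with a line at 0. Every member is higher at the edge in both CC075F1 sections (0.42 to 2.23), and the CC080F1 points lie lower (−0.30 to 0.77). The hypoxia sum is below 0 in CC075F1 and above it in CC080F1.

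Of the list genes, 10 passed the adjusted test at the edge, all of them higher there. Pdgfb, the pericyte-recruiting ligand, was higher by 0.54 ± 0.08 on the log2 scale (edgeR adjusted p = 0.0326) and rose in all 4 sections, by 0.68 and 0.92 in CC075F1 and 0.32 and 0.51 in CC080F1. Apln, the ligand of the apelin receptor and a gene of sprouting endothelial tips, was higher by 0.81 ± 0.09 (adjusted p = 0.0132) and differed little between sections, from 0.71 to 1.04. Among other mural cell markers the contractile genes Acta2 (1.08 ± 0.10) and Tagln (1.82 ± 0.26) were called, 2 of 12. Of the 10 fibroblast markers 3 were called, Col1a2, Col1a1 and Postn, at 2.21 ± 0.28, 2.12 ± 0.32 and 1.96 ± 0.25, while 2 of the 10 were lower at the edge in the fit. The other called genes were Lyve1, a marker of lymphatic endothelium and of some macrophages (1.98 ± 0.20), and the platelet genes Ppbp and Itgb3 (1.64 ± 0.26 and 0.68 ± 0.10). Of the 4 platelet genes tested, 2 were lower at the edge in the fit, and Ppbp reached only 0.141 to 0.880 TMM-scaled CPM. Of 22 other endothelial markers 21 were higher at the edge in the fit, with a median of 0.55, where 45.6% of all genes tested were higher. All 12 other mural markers (median 0.71), 6 of 6 tested vascular Notch genes (0.45) and 4 of 4 angiopoietin genes (0.56) were also higher, and none of the Notch or angiopoietin genes was called. By section, the 22 and the 12 rose in sum by at least 0.52 on the log2 scale in both CC075F1 sections. In CC080F1 the sums rose by 0.10 and 0.26 for the 22, and by 0.07 and 0.55 for the 12. The sign differed between genes in CC080F1 section 1, with Plvap at −0.06 and Mcam at 0.34. Mcam and Plvap, at 0.62 ± 0.11 and 0.57 ± 0.16, missed the threshold, and Cspg4 and Cd34 lay near 0, at 0.09 ± 0.10 and −0.04 ± 0.09. The 4 adipocyte genes tested were higher at the edge with a median of 2.80, and the muscle genes with one of 2.19. The part of tissue around the tumor in the edge levels was not tested. Without spots over 0.5% skin, muscle or fat UMIs the median of the members was 0.52. That step took out 59 spots of CC075F1 section 2, 2 of CC080F1 section 2 and 0 of the other sections.

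The fourth comparison was the difference between strains in the edge contrast. All 10 members had a larger edge contrast in CC075F1, by a median of 0.62 on the log2 scale against −0.02 for all genes. None passed the adjusted test in edgeR, which called 0.0837% of 14345 genes, and DESeq2 also called 0 members. All 10 had an unadjusted p under 0.05 in this direction, against 4.57% of all genes. For all 10 members both CC075F1 sections exceeded both CC080F1 sections, which held for 36.9% of all genes. Tie1 had the lowest p. Its log2 edge contrast was 1.21 and 1.14 in the CC075F1 sections against 0.04 and 0.07 in the others, which differ by 0.97 ± 0.16 (edgeR adjusted p = 0.103). Esam differed by 0.70 ± 0.16, Pecam1 by 0.61 ± 0.14 and Pdgfrb by 0.64 ± 0.17. Without CC080F1 section 2, 6 members passed (Pecam1, Cdh5, Tie1, Esam, Rgs5 and Pdgfrb), against 2.28% of all genes in that fit (327, where the fit of all sections called 12). Without CC080F1 section 1 only Tie1 passed, against 1.3% of all genes, and without either CC075F1 section none did.

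Fitted within a strain, the edge contrast of the members had a median of 0.97 in CC075F1 and 0.28 in CC080F1. Within CC075F1 8 members were called, all but Tek and Pdgfrb, against 3.27% of all genes. Within CC080F1 0 members were called, against 0.494% of all genes, although 6 were higher at the edge at an unadjusted p under 0.05, against 6.41% of all genes. A call in 1 strain and not in the other is no test of their difference, which is the one given above. In sum the 9 hypoxia genes ran the other way. They were lower at the edge in CC075F1, by 0.44 and 0.34 on the log2 scale, and higher in CC080F1, by 0.07 and 0.30. Most of the sum was Ldha and Pgk1, at 1426 and 1116 of 2887 TMM-scaled CPM in CC075F1 section 1. Single genes departed from it. Adm was higher at the edge in all 4 sections (0.31 to 0.87). Bnip3, Egln3 and Ankrd37 were lower at the edge in CC080F1 section 1, at −0.08, −0.30 and −0.27, while the rest were higher. All 9 genes had a negative difference between strains, with a median of −0.78, where 45.3% of all genes had a positive one. Of the 9, 8 had an unadjusted p under 0.05, which 1255 of 14345 genes had in either direction. Vegfa, itself induced by hypoxia, went the same way at −0.28 and −0.21 in CC075F1 against 0.21 and 0.64 in CC080F1, with a difference of −0.81 ± 0.15 (edgeR adjusted p = 0.134). Of 22 other endothelial markers 19 had a positive difference (median 0.66), and 14 of these had an unadjusted p under 0.05. The shares of all genes were 45.3% and 4.57%.

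The level against distance showed where the strains parted. At 1 step from the edge the 8 endothelial genes summed to 182 and 147 CPM in CC075F1 and 191 and 148 in CC080F1. The strains thus overlapped there in plain CPM, without TMM scaling. At 13 or more steps they summed to 47.7 and 49.7 CPM in CC075F1 and to 188 and 99.2 in CC080F1. The endothelial level thus went down inward in CC075F1, by 0.13 and 0.09 log2 units per step, and less in CC080F1, at −0.02 and −0.05 per step (exact permutation p = 0.333, the smallest possible). With the rim counted as edge the gap narrowed, to −0.13 and −0.09 in CC075F1 against −0.06 and −0.05 in CC080F1. For Kdr, alone of the 8 genes, the strains then overlapped, at −0.12 and −0.076 against −0.079 and −0.036. Emcn in CC075F1 section 1 is an example of a single gene. It stood at 26.9 CPM at 1 step and at 4.83 CPM at 13 or more steps. Only 177 spots of CC080F1 section 1 lay at 13 or more steps, against 797 to 1142 in the other sections.

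Rgs5 also went down inward in 3 of 4 sections. In CC075F1 it went from 31.6 and 30.02 CPM at 1 step to 6.71 and 9.25 at 13 or more, and in CC080F1 section 2 from 44.2 to 22.1. In CC080F1 section 1 it stood at 49.2 CPM at 1 step, 64.6 at 4 to 5 steps and 52.4 at 13 or more, so the highest level lay between. Pdgfrb went from 35.5 to 21.4 CPM in CC075F1 section 1 and from 20.9 to 9.62 in section 2. In CC080F1 it stood at 43.2 and 54.8 in section 1 and at 40.8 and 38.4 in section 2. Its slope per step lay between −0.05 and 0.02 log2 units over the 4 sections, against −0.15 to −0.004 for Rgs5. With the rim counted as edge the ranges were −0.05 to 0.007 for Pdgfrb and −0.14 to −0.04 for Rgs5.

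**Figure D4:**
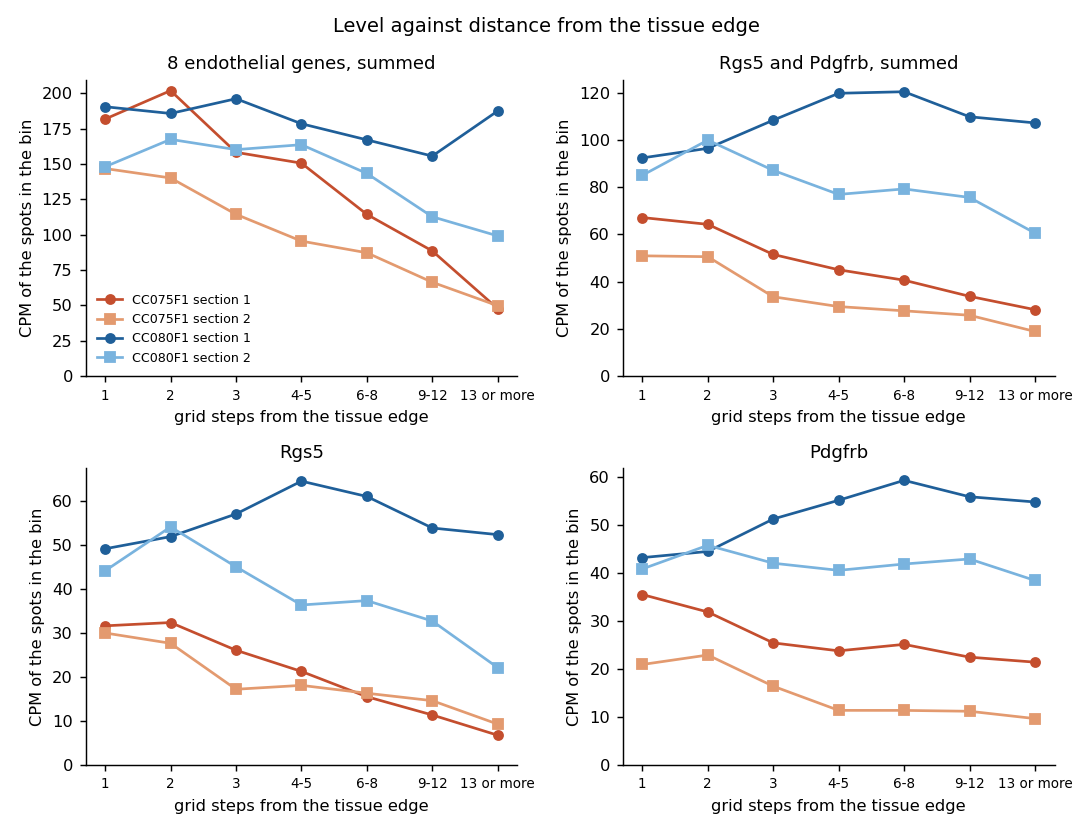
CPM of the spots in each distance bin against grid steps from the tissue edge, 1 line per section, for the endothelial sum, the pericyte sum, Rgs5 and Pdgfrb. The CPM carry no TMM scaling. The endothelial lines start together at 147 to 191 CPM and part inward, with both CC075F1 sections near 50 CPM at 13 or more steps, while the pericyte lines of the strains are apart at every distance.

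In sum the hypoxia genes were higher inward in CC075F1. They summed to 2423 and 2477 CPM at 1 step and to 3990 and 3596 at 13 or more. In CC080F1 section 2 they went from 3862 at 1 step to 3040 at 13 or more. In section 1 no inward trend held, with 2650 at 1 step, 2791 at 9 to 12 steps and 2195 in the 177 spots at 13 or more. Their part in the vessel gene profiles was not tested.

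The strain comparison was repeated by zone, a split chosen after these profiles were seen. In edge spots alone the members had a median log2 difference of −0.20 (CC075F1 over CC080F1). Pecam1, Emcn, Tie1 and Esam were positive there, at 0.22, 0.28, 0.15 and 0.29, and Rgs5 and Pdgfrb stayed negative, at −0.70 ± 0.18 and −0.66 ± 0.18. No member was called in edge spots, where 0.015% of 13366 genes were, and only Rgs5 and Pdgfrb had an unadjusted p under 0.05, against 1.86% of all genes that were lower in CC075F1 at that level. In spots at 13 or more steps all 10 were negative, with a median of −1.26. No member was called there either, where 0.0658% of 13686 genes were. There 9 of 10 had an unadjusted p under 0.05, against 2.41% of all genes in this direction. The core differences were −0.76 ± 0.34 for Pecam1, −0.97 ± 0.41 for Emcn and −1.44 ± 0.36 for Tie1. They were −1.52 ± 0.36 for Kdr, −1.74 ± 0.42 for Rgs5 and −1.29 ± 0.26 for Pdgfrb. Tek had the lowest value, −2.92 ± 0.66, from 8 and 17 UMIs in CC075F1 and 33 and 53 in CC080F1.

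The last question was how endothelial and pericyte genes shared spots. All values here are Pearson's r over the 2710 to 3276 spots of a section, on log2(1 + UMIs per 10000), and spots share a library, depth and neighbors, so they carry no p. The endothelial and pericyte sums had r of 0.280 and 0.385 in the CC075F1 sections, with 0.363 and 0.442 in the others, which overlapped between strains (means 0.332 ± 0.074 and 0.402 ± 0.056, SD, n = 2 each). Summing each spot with its neighbors raised r to between 0.478 and 0.727. Spots with an endothelial UMI made up 77.1% to 94.6% of a section and spots with a pericyte UMI 55.4% to 89.1%. With spots grouped into 10 strata of depth, the odds of a pericyte UMI were 1.84 and 2.17 times as high in spots with an endothelial UMI in CC075F1, and 1.41 and 2.19 times in CC080F1. Pericyte CPM was 28.4 and 14.7 in the CC075F1 spots with 0 or 1 endothelial UMIs and 65.5 and 53.2 in those with 8 or more. In CC080F1 it was 70.3 and 47.0 against 154 and 120. These CPM carry no TMM scaling, whose factor was 0.745 in CC075F1 section 2 against 1.07 to 1.17 in the others. They therefore compare spots within a section and not the strains. The classes are cuts of raw UMIs, so they also depend on spot depth.

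Endothelial members went together across spots, with all 28 pairs positive and mean r over sections from 0.097 (Tek with Tie1) to 0.323 (Emcn with Esam). Pairs with Tek were lowest, at 0.097 to 0.163, and Tek had the fewest UMIs. The pericyte genes differed in their link to the endothelial sum. Rgs5 had r of 0.331 and 0.378 with the endothelial sum in CC075F1 and 0.398 and 0.478 in CC080F1. Pdgfrb had 0.108 and 0.204 against 0.155 and 0.234, although it had more UMIs than Rgs5 in 2 of 4 sections. Rgs5 was higher in 4 of 4 sections, by 0.221 ± 0.033 (SD over sections, exact sign-flip p = 0.125, the smallest possible). Rgs5 and Pdgfrb had r of 0.079 to 0.251 with each other (mean 0.190), below that of Rgs5 with the endothelial sum in every section. That sum pools 8 genes. With single endothelial genes the mean r of Rgs5 ran from 0.129 (Tek) to 0.296 (Esam), a range that holds its value with Pdgfrb.

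The same split ran through other lists. With the other endothelial markers the mean r over sections was 0.381 for Rgs5 and 0.172 for Pdgfrb, and with the other mural cell markers 0.402 and 0.203. Each difference had the same sign in 4 of 4 sections. With the 10 fibroblast markers Pdgfrb had 0.246 and Rgs5 0.211, and Rgs5 was the higher of the pair in 1 of 4 sections. Against the hypoxia genes all were negative, at −0.413 for the endothelial sum, −0.295 for Rgs5 and −0.158 for Pdgfrb. For the endothelial sum this r lay between −0.429 and −0.382 in all 4 sections. The spatial clustering of neighboring spots (Moran's I) was 0.124 to 0.258 for Rgs5 and 0.046 to 0.135 for Pdgfrb, and 0.289 to 0.350 for the endothelial sum.

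**Figure D5:**
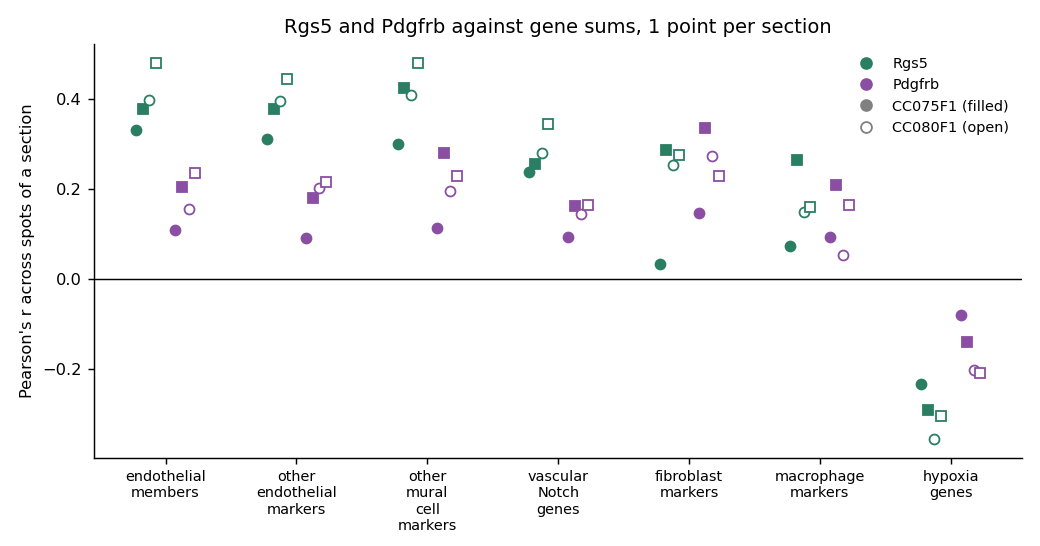
Pearson's r across the spots of a section between Rgs5 (green) or Pdgfrb (purple) and the summed level of each gene list, 1 point per section, CC075F1 filled and CC080F1 open, with circles for section 1 and squares for section 2. Rgs5 lies above Pdgfrb for the endothelial and mural lists in every section and below it for the hypoxia genes, and the fibroblast points overlap.

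The genes most like the members across spots were ranked among 8405 non-member genes with at least 10 mean CPM. Closest to the endothelial sum were Igfbp7, a secreted factor of vessels (mean r = 0.627 over 4 sections), Sparc, a matrix glycoprotein (0.565), Igfbp3 (0.556) and Col4a1 (0.546), a chain of basement membrane collagen IV. Ctla2a, Col4a2, Plvap, Mcam, Egfl7 and Sparcl1 followed, at 0.524 to 0.489, and the 99th percentile of all ranked genes was 0.213. The first 10 for Rgs5 were Igfbp7 (0.442), Col4a1, Sparc, Sparcl1, Col4a2, Plvap, Serpine2, Col18a1, Fabp4 and Epas1. Those for Pdgfrb were Col3a1 (0.248), the fibrillar collagen of fibroblasts, Sparc, Igfbp7, Col4a2, Col4a1, Col5a1, Col6a2, Col6a1, Bgn and Serpine2. The collagens of the interstitial matrix, Col3a1, Col5a1, Col6a1 and Col6a2, were among the first 10 for Pdgfrb and not among those for Rgs5, which instead included Plvap, a gene of the endothelial list. Other fibroblast genes went the other way. Bgn had a mean r of 0.292 with Rgs5 and 0.184 with Pdgfrb, and Postn 0.289 and 0.178. Col1a1 and Col1a2 were also higher with Rgs5, and Plvap had rank 20 for Pdgfrb. The 99th percentile was 0.152 for Rgs5 and 0.103 for Pdgfrb.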

How the data were processed

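The authors ran Space Ranger 1.3.1 on the GRCm38 reference (GENCODE vM23) and deposited raw UMI counts per gene and spot, limited to spots under tissue and not normalized. Their Seurat 5.0.1 normalization and shuffling of spots were not used. Positions of genes are those of GENCODE vM21 (GRCm38), and promoters from RefSeq on GRCm38.p6. UMIs were summed per section, or per edge and interior of a section, and fitted with edgeR 4.0.16 quasi-likelihood (R 4.3.3), filterByExpr, TMM and Benjamini-Hochberg adjustment over all genes tested. Terms were the strain, or the section as a block with zone and strain by zone. DESeq2 1.42.0 was an alternative. Errors beside log2 differences are standard errors. The rim of the capture grid did not count as off tissue. Slopes came from Poisson regression of UMIs on distance with spot total as offset. Sections are separate tumors and the only replicates. For counts of spots, intervals and floors cover counting error only. Odds ratios were Mantel-Haenszel. Ccl21a matched several rows and was left out. Scripts were tested on simulated data. The members and lists were chosen with earlier results of these data known. Named from the lists were genes called in a comparison (up to 3 per list, by size), the 2 of highest mean CPM in each vascular list, and the 10 most like the endothelial sum, Rgs5 and Pdgfrb. Keratinocyte genes (5, Krt15 at 0) summed to 22.8 to 40.1 TMM-scaled CPM, adipocyte genes (5) to 0.717 to 8.49, muscle genes (6) to 3.96 to 188, platelet genes (5) to 6.08 to 8.23 and 3 lymphatic genes to 31.7 to 50.3.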

Additional observations from a re-analysis of the deposited data

Results flagged for a closer look

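In the test of the difference between strains in the edge contrast, 3 genes of the fixed lists passed edgeR's adjusted threshold, and all had a larger contrast in CC075F1. Lum, a proteoglycan of fibroblasts, differed by 2.52 ± 0.24 on the log2 scale (adjusted p = 0.00643), and its log2 edge contrast was 2.32 and 3.13 in the CC075F1 sections against 0.44 and −0.16 in the others. The muscle genes Acta1 and Myh4 differed by 6.11 and 7.81, and both rest on CC075F1 section 2, which held 102 and 5.81 TMM-scaled CPM of them against at most 5.74 and 0.404 elsewhere.

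Summed lists moved in opposite directions from interior to edge in the strains. The exact permutation test of this difference gave p = 0.333 for each of these sums, the smallest that 2 sections per strain allow. The mean log2 edge contrast of CC075F1 minus that of CC080F1 was −0.57 for the hypoxia genes, −0.21 for the VEGF ligands and other VEGF receptors, and 3.29 for the skeletal muscle markers, the last again resting on CC075F1 section 2. Without spots over 0.5% skin, muscle or fat UMIs, the members' median difference between strains in the edge contrast was 0.59.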

How the results depend on the processing

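The sign of the members' log2 values was kept in 125 of 130 values under the alternatives to the strain fit, in 159 of 160 for the edge fit and in 140 of 140 for the edge contrast between strains. The exceptions were Pecam1, Emcn, Tie1 and Esam in edge spots only (0.22, 0.28, 0.15 and 0.29), Emcn without CC075F1 replicate 1 (0.039) and Pdgfrb within CC080F1 (−0.11). The zone and within-strain fits were chosen after seeing the data. Counts of calls moved more, and the cause was not tested.

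In the strain comparison, 14 genes and 0 members were called. DESeq2 called 194 genes and 2 members, no filter 480 and 4, library size alone 40 genes, edge spots only 2 and spots at 13 or more steps 9. Leaving out 1 section gave 11 to 207 genes and 0 to 2 members. The members' median of −0.71 became −0.20 in edge spots, −1.26 at 13 or more steps and −1.01 with library size alone, which moved the median of all genes to −0.31, and −0.93 to −0.46 when a section was left out.

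At the edge, 125 genes and 0 members were called. DESeq2 called 596 genes and 6 members, no filter 683 and 8, the outer boundary only 266 and 2, the rim counted as edge 310 and 5, no skin, muscle or fat spots 330 and 3, CC075F1 alone 470 and 8, and CC080F1 alone 72 and 0. An edge of 2 steps gave 202 genes, one of 5 steps 39 and spots of at least 10000 UMIs 75. Leaving out 1 section gave 1 to 854 genes and 0 to 8 members.

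For the edge contrast between strains, 12 genes and 0 members were called. DESeq2 called 69 genes, an edge of 2 steps 23, library size alone 19 (median of all genes 0.12) and no filter 532 genes and 7 members. Leaving out 1 section gave 2 to 327 genes, 0 to 6 members and a median of 0.43 to 0.81. The pericyte to endothelial ratio between strains was 0.647 with geometric means against 0.605. The mean spot correlation of 0.367 was 0.223 after thinning to 10000 UMIs and 0.175 for Pdgfrb alone, and the mean odds ratio of 1.90 was 2.56 at 2 UMIs.

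With the replicate number as a block, 287 genes and 2 members were called, Rgs5 (−1.296, edgeR adjusted p = 0.0111) and Pdgfrb (−1.18, adjusted p = 0.00310). Same-numbered sections had a correlation of deviations from the strain means of 0.165. With 2 sections per strain the crossed value of −0.165 is fixed as its negative, and same-numbered sections share only a number. The 2 sections per strain limit every comparison between strains, and Tek, with 42 to 231 UMIs a section, is the least precise member.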

Other observations

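Of the other mural cell markers, the potassium channel subunits Kcnj8 and Abcc9, which mark pericytes, were chosen after their values were seen. Among these 12 genes, of which 8 were lower and 4 higher in CC075F1 (median log2 difference −0.18, none called), they had the lowest values. Kcnj8 stood at 4.53 and 4.83 TMM-scaled CPM in CC075F1 and 12.2 and 8.21 in CC080F1, with a log2 difference of −1.12 ± 0.27 (edgeR adjusted p = 0.380). Abcc9 stood at 4.01 and 3.14 against 10.4 and 6.15, with a log2 difference of −1.21 ± 0.32 (adjusted p = 0.497). Of other pericyte markers in the list, likewise chosen with their values seen, Cox4i2 had a log2 difference of 0.68 ± 0.36, Higd1b −0.09 ± 0.39 and Ndufa4l2 −0.04 ± 0.40. Contractile genes of larger vessels overlapped between strains. Acta2 measured 9.71 and 17.4 against 11.1 and 14.8, a log2 difference of 0.06 ± 0.31, and Myh11 0.762 and 0.596 against 0.679 and 0.956, one of −0.27 ± 0.42. These differences were not tested against each other.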
